A study of Mus musculus with 23 samples.

Results

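The immediate early genes examined here were Fos, Fosb, Junb, Egr1, Egr2, Egr4, Arc, Npas4, Nr4a1 and Dusp1, 10 of the 31829 gene names on the array. Each was measured by 1 probe, and all 10 probes were well above the local background on all 12 arrays. They were selected on their known place in the activity-induced program and chosen by what the log2 values of these same 12 arrays had shown of the 3 diet groups, so that their levels, their differences and the counts of members past a threshold are all given as descriptions, without a p-value for any single gene.

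The arrays measured RNA of the whole brain, cerebrum and cerebellum together, of 12 adult male C57BL/6J mice, 4 in each of 3 groups named for the diet of the recipient mother. All embryos came from in vitro fertilization between C57BL/6J parents on a normal diet and were carried by ICR females. The recipients ate the control diet (CD), the protein-restricted diet (PR), in which casein was reduced, or the PR diet with added folic acid (FA), and all progenies were raised by ICR foster mothers and ate the CD after weaning. The sources differ on whether the foster mothers had eaten the CD or the experimental diets, so that an effect through nursing cannot be told apart from one before birth. The comparison asks whether the maternal diet left a difference in the adult brain. The mice had passed behavioral tests, the last of them some weeks before their brains were taken after cervical dislocation. The time of day, and how the mice were handled just before death, are not given in the sources used here. Nothing in the labels says whether the 4 mice of a group came from separate recipient mothers, so p-values measure only the spread between these mice.

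Immediate early genes are transcribed within minutes of synaptic input, from factors already present in the cell, and their mRNAs decay quickly. Calcium entry and the kinases behind it act on CREB, which binds the cAMP response element, and on SRF with its partners at the CArG box. Fos, Fosb and Junb encode subunits of the AP-1 transcription factor, Egr1, Egr2 and Egr4 are zinc finger factors, Npas4 is a neuron-restricted factor induced by calcium, Nr4a1 is an orphan nuclear receptor, Arc is a cytoskeletal protein of the synapse that lowers surface AMPA receptors, and Dusp1 is a phosphatase that turns off MAP kinases. In brain, the level of these mRNAs at death is widely read as a trace of recent neuronal activity.

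The promoters of 4 members are shown because they carry the binding letters through which the family is known to respond. Each line gives the 250 bases before the RefSeq transcription start in GRCm38.p6, on the strand of the gene, and capitals mark the core of the cAMP response element, TGACG, or its complement CGTCA. Fos lies on the plus strand at chr12:85473640-85473889, Nr4a1 on the plus strand at chr15:101266596-101266845, Dusp1 on the minus strand at chr17:26508473-26508722, and Npas4 on the minus strand at chr19:4989972-4990221.
Fos: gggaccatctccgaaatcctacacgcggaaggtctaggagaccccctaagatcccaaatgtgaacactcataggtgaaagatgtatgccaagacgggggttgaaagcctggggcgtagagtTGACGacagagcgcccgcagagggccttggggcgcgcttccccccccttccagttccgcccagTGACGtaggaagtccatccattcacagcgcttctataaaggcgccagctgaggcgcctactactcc
Nr4a1: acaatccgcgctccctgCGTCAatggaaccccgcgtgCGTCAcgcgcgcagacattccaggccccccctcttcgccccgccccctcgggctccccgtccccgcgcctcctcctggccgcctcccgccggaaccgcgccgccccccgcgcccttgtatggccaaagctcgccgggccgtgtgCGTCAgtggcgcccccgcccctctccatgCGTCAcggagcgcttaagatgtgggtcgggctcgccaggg
Dusp1: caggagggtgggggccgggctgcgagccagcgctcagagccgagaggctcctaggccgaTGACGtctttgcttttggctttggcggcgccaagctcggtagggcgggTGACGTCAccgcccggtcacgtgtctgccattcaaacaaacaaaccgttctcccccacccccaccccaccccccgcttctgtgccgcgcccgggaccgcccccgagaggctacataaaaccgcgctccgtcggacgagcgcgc
Npas4: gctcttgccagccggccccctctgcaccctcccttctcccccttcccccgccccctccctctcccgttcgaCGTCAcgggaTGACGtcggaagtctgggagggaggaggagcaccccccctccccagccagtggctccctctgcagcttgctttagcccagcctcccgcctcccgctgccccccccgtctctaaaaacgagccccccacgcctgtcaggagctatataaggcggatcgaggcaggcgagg
The window of Fos held 2 copies, at 129 and 66 bases before the start, that of Nr4a1 held 4, that of Dusp1 held 3, and that of Npas4 held 2. In Dusp1 a pair of them overlapped as the full palindrome TGACGTCA, 143 bases before the start.

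Promoter windows of 8 members were in the RefSeq table, and those of Arc and Egr1 were not used here. TGACG, searched on both strands from 250 bases before to 50 after the start, was found in 8 of 8 members and in 23.0% of all 27025 genes, a gene counting when any of its windows held the letters. For Egr2, 3 of 5 windows held it. The palindrome TGACGTCA contains TGACG on both strands, and it was found in 1 of 8 members (Dusp1) and in 2.0% of genes. The CArG box was found in 1 of 8 (Egr2) and in 1.8% of genes. Egr2 has several annotated starts, and a CArG box, in capitals, lies before an annotated start on the plus strand at each of chr10:67537484-67537513 and chr10:67537787-67537816.
Egr2 first site: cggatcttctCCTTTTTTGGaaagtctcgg
Egr2 second site: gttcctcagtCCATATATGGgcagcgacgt
The EGR letters GCGGGGGCG occurred in 2 of 8 members (Fosb and Nr4a1) and in 3.3% of genes, and the AP-1 letters TGANTCA in 0 of 8 and in 9.0%. These matches describe letters in a window, and binding was not measured. Sites further from the start, and the promoters of Arc and Egr1, were not searched, so a member without a match may still have a site.

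Values below are log2 of the deposited normalized intensity, in the order of the replicate numbers, and the mean of a group is given ± SD with n = 4. The 4 arrays of a diet shared 1 slide and 1 scan. Every difference between groups below is therefore one between slides too, and these cannot be told apart. The number of spots well above background was 27068 to 28458 on the CD arrays, 31266 to 33478 on the PR arrays, and 30408 to 31672 on the FA arrays. No spot was saturated. In whole-brain RNA, fewer active cells and less mRNA per active cell cannot be told apart. All 10 members had SDs in the PR and in the FA group above that in the CD group, and 9 of 10 had their highest group mean in the CD.

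**Figure D1:**
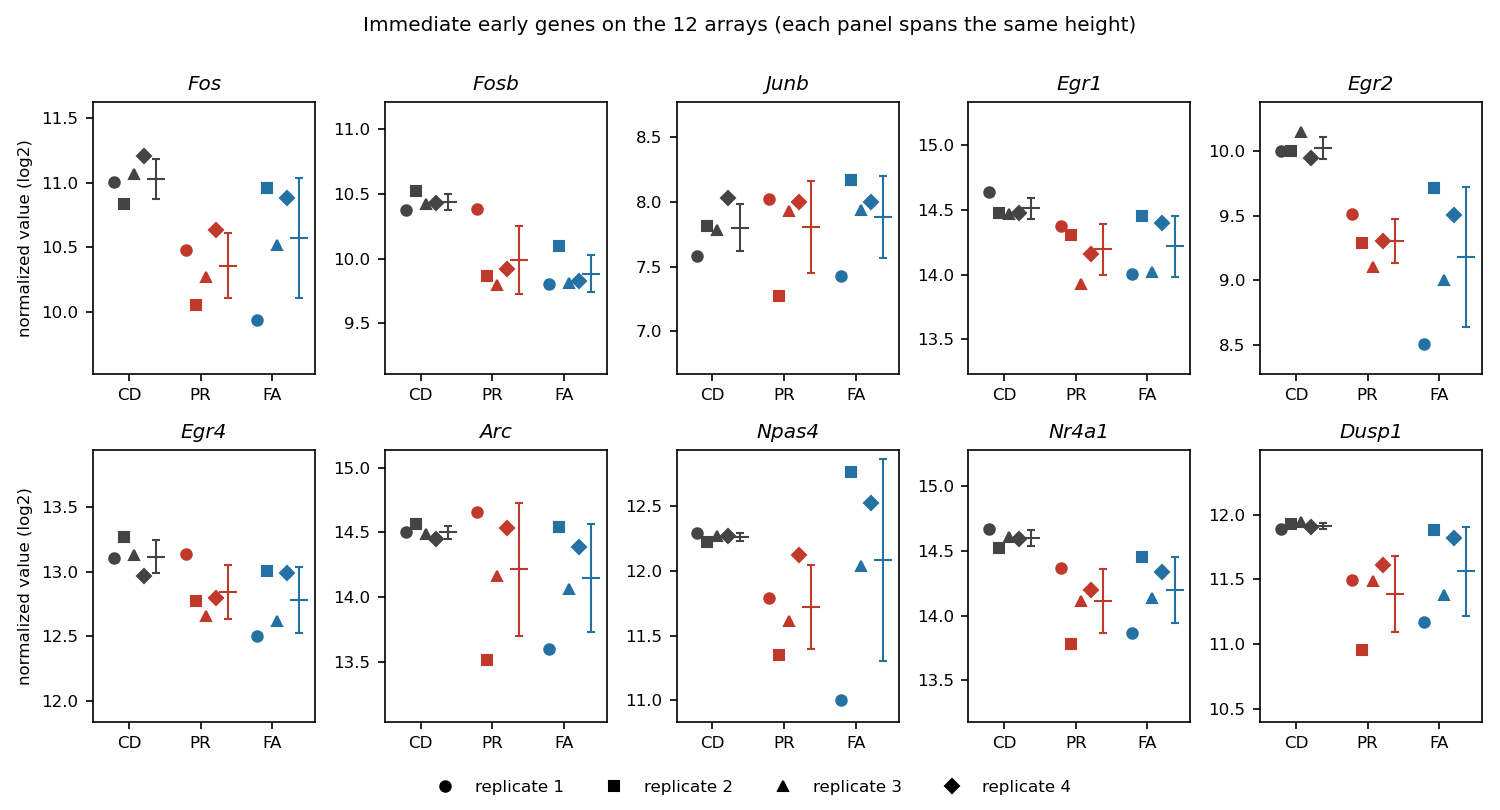
Normalized value (log2 scale) of the 10 immediate early genes, 1 panel per gene, with 1 point per mouse for the CD (grey), PR (red) and FA (blue) groups. The marker shape gives the replicate number, and the bar to the right of each group is the mean ± SD of 4 mice. In Npas4, Arc and Dusp1 the 4 CD mice nearly coincide, and the PR and FA mice spread over 0.66 to 1.76 log2 units.

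Among the AP-1 subunits, Fos (probe at chr12:86817900-86817959, mm9) read 11.01, 10.84, 11.06 and 11.21 in the CD mice, 10.48, 10.05, 10.27 and 10.63 in the PR mice, and 9.94, 10.96, 10.52 and 10.88 in the FA mice. All PR mice lay below all CD mice, while 2 of 4 FA mice lay below and the other 2 within their range. The means were 11.03 ± 0.15, 10.36 ± 0.25 and 10.57 ± 0.47, so that Fos was 1.59-fold lower in the PR group (log2 difference -0.67, SE 0.21) and 1.37-fold lower in the FA group (-0.46, SE 0.21) than in the CD group. Fos was the one member printed in 10 spots on each array, and the SD between these spots was 0.03 to 0.07 on the log2 scale. Spots of 1 array share the labelling and the hybridization, so this SD covers the noise of printing and reading alone.

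Fosb (chr7:19888168-19888227) read 10.38, 10.52, 10.42 and 10.43 in the CD mice, 10.38, 9.86, 9.80 and 9.92 in the PR mice, and 9.80, 10.10, 9.81 and 9.82 in the FA mice. PR replicate 1 reached the lowest CD mouse, and the other PR mice and all FA mice lay below the CD range. The differences from the CD were -0.45 (SE 0.12) for PR and -0.56 (SE 0.12) for FA, the smallest standard errors among the members. Junb (chr8:87501881-87501940), whose product can oppose that of Jun in AP-1, went another way. It read 7.58, 7.82, 7.78 and 8.03 in the CD mice, 8.02, 7.27, 7.93 and 7.998 in the PR mice, and 7.43, 8.17, 7.93 and 7.999 in the FA mice. Its group means of 7.80 ± 0.18, 7.81 ± 0.36 and 7.88 ± 0.32 lay within 1 SD of each other, and it was the one member with no lower mean under PR or FA (differences 0.00 and 0.08, SE 0.20).

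Of the EGR factors, Egr2 (chr10:67004798-67004857), known in brain as an effector of sustained stimulation, had the largest differences of all members. It read 10.001, 10.002, 10.15 and 9.94 in the CD mice, 9.52, 9.29, 9.10 and 9.31 in the PR mice, and 8.51, 9.72, 9.002 and 9.50 in the FA mice. Neither group overlapped with the CD. The PR mean was 60.6% of the CD mean (log2 difference -0.72, SE 0.22) and the FA mean 55.8% (-0.84, SE 0.22), as ratios of geometric means.

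Egr1, whose product is among the longest studied plasticity factors, read 14.64, 14.47, 14.47 and 14.48 in the CD mice, 14.38, 14.31, 13.93 and 14.16 in the PR mice, and 14.01, 14.45, 14.02 and 14.40 in the FA mice. The groups did not overlap with the CD, but the gap was narrow, since the highest FA mouse lay at 14.45 and the lowest CD mouse at 14.47. Its differences were -0.32 for PR and -0.30 for FA (SE 0.13). Egr4 (chr6:85461153-85461212) read 13.10, 13.27, 13.13 and 12.97 in the CD mice, 13.14, 12.77, 12.65 and 12.80 in the PR mice, and 12.51, 13.01, 12.61 and 12.99 in the FA mice. One PR mouse and a pair of FA mice lay inside the CD range, and the differences were -0.28 and -0.34 (SE 0.14).

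Npas4 (chr19:4984356-4984415) paired a narrow CD group with the widest FA group of the members. It read 12.29, 12.23, 12.27 and 12.27 in the CD mice, 11.79, 11.35, 11.61 and 12.13 in the PR mice, and 11.00, 12.76, 12.04 and 12.52 in the FA mice. All PR mice lay below the CD mice. The FA mice fell on both sides, 2 below and 2 above every CD mouse. The SD was 0.03 in the CD, 0.32 in the PR and 0.78 in the FA group, and the differences of the means were -0.54 for PR and -0.18 for FA (SE 0.32).

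Arc (chr15:74499592-74499651) read 14.50, 14.57, 14.49 and 14.45 in the CD mice, 14.66, 13.51, 14.16 and 14.53 in the PR mice, and 13.60, 14.54, 14.06 and 14.39 in the FA mice. The PR range enclosed that of the CD, and PR replicate 2 and FA replicate 1 were the lowest by a wide margin. The differences of -0.29 and -0.35 were close to their standard error of 0.25. Nr4a1 (chr15:101105071-101105130) read 14.67, 14.52, 14.60 and 14.59 in the CD mice, 14.37, 13.78, 14.11 and 14.20 in the PR mice, and 13.86, 14.45, 14.13 and 14.33 in the FA mice. All PR and FA mice lay below all CD mice, with differences of -0.48 and -0.40 (SE 0.14).

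Dusp1, which feeds back on the MAP kinase signal that induces the other members, has a probe whose listed position, chr17:26642526-26642536, is shorter than the probe. It read 11.89, 11.93, 11.94 and 11.90 in the CD mice, 11.49, 10.96, 11.49 and 11.62 in the PR mice, and 11.17, 11.88, 11.38 and 11.82 in the FA mice. No PR or FA mouse reached the CD range, whose width was 0.05. The means were 11.92 ± 0.02, 11.39 ± 0.29 and 11.56 ± 0.34, and the differences from the CD were -0.53 and -0.35 (SE 0.17).

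In the limma fit over all 39429 probes, 5 of 10 members were lower in PR than in CD at a Benjamini-Hochberg adjusted p under 0.05 (Fos, Fosb, Egr2, Nr4a1 and Dusp1) and 0 were higher. The same call held for 16.6% of all probes in the lower and 13.4% in the higher direction. With normexp background correction the split of all called probes turned to 9.29% lower and 11.96% higher, and 5 members were lower. With dim probes removed it turned to 13.7% lower and 17.1% higher, and 5 members were lower. The groups did not overlap, with PR lower, in 6 members and in 19.0% of all probes. By the limits of the methods (adjusted p under 0.0001 and a change of 2-fold or more), 0 members were lower against 0.0254% of probes. The median difference over the members was -0.46 against -0.02 over all probes. The count of 5 rested on single arrays. It was 0 without PR replicate 3, 1 without PR replicate 2, CD replicate 1 or CD replicate 3, and 3 without PR replicate 1, CD replicate 2 or CD replicate 4. Without single arrays, 13.4% to 17.1% of all probes were called lower. The methods' Tukey test, with the same adjustment, called 0 members and 12.4% of probes lower. By limma, 6 members and 22.3% of probes were lower at an unadjusted p under 0.05.

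Between FA and CD, 3 members were lower at an adjusted p under 0.05 (Fosb, Egr2 and Nr4a1) and 0 were higher, against 18.0% and 16.4% of all probes. With dim probes removed the shares were 16.5% lower and 21.4% higher, and 3 members were lower. The groups did not overlap, with FA lower, in 5 members and in 19.7% of probes, and 0 members met the limits of the methods against 0.0634% of probes. The median difference was -0.35 over the members and -0.01 over all probes. The Tukey test called 1 member, Fosb, and 13.9% of probes lower. Leaving out single arrays gave 2 to 4 members and 15.5% to 18.2% of probes. Both comparisons use the same 4 CD mice, so the likeness of their values is in part built in.

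Between FA and PR, in which folic acid is the one labelled difference, 0 of 10 members were called in either direction by limma, 0 were at an unadjusted p under 0.05, and the Tukey test called 0. Over all probes 0.386% were lower and 0.228% higher, at an unadjusted p 6.1% and 8.03%, and by the Tukey test 0.00507% and 0.0152%. The differences ran from -0.12 (Egr2) to 0.36 (Npas4), with standard errors of 0.12 (Fosb) to 0.32 (Npas4). This comparison has a median member difference of 0.05, and 4 of 10 members had a lower mean in FA.

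**Figure D2:**
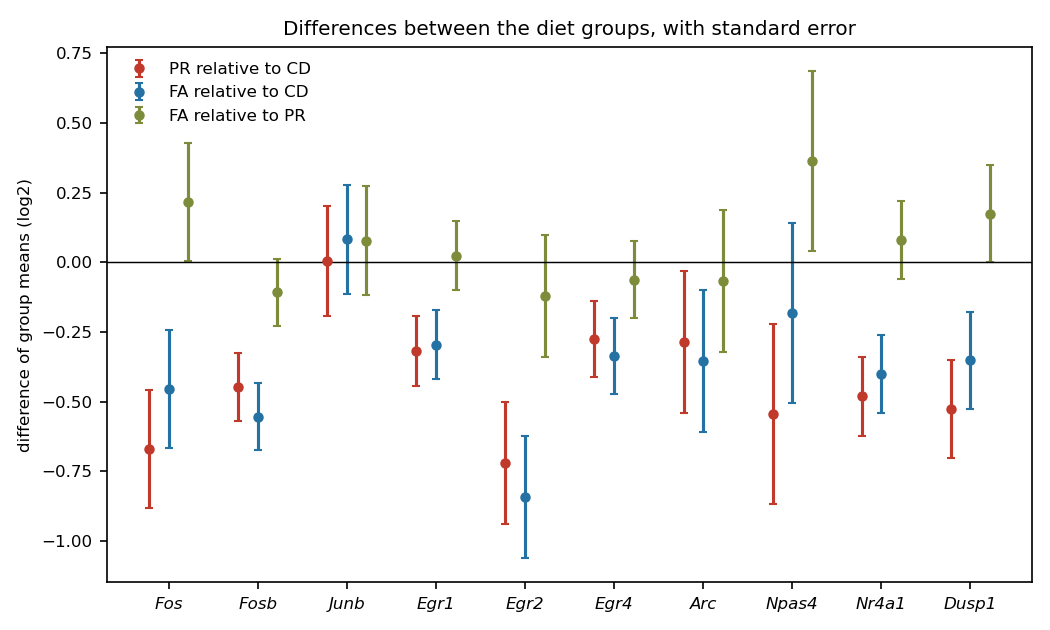
Difference of the group means (log2 scale) for each immediate early gene, with its standard error from the limma fit, for PR relative to CD (red), FA relative to CD (blue) and FA relative to PR (green). In 9 of 10 genes both comparisons with the CD lie below 0, Junb being the exception, and the FA to PR differences lie on both sides of 0.

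The members were chosen from these values, and their spread between mice is given as a description. The median SD over the 10 members was 0.07 in the CD, 0.26 in the PR and 0.33 in the FA group. Over the 23753 probes well above background on all arrays it was 0.10, 0.09 and 0.08. The SD of 0 members in the CD, 5 in the PR and 6 in the FA group lay above the level that 95% of these probes stayed under. All 10 members had a larger SD in PR than in CD and in FA than in CD, as did 41.0% and 40.0% of these probes. Granulocyte markers, described further on, had a narrow CD group and wide PR and FA groups as well, with mean deviations of -0.05 to 0.07 in the CD, -1.17 to 1.94 in the PR and -1.51 to 1.06 in the FA mice. Since the members move together, as given next, these counts are not 10 independent observations.

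Within the PR and FA groups the members moved together. The mean deviation of the 10 members from their group mean was -0.01 to 0.01 in the CD mice. In the PR mice it was 0.23, -0.28, -0.09 and 0.14, and in the FA mice -0.47, 0.35, -0.10 and 0.22. FA replicate 1 was the lowest FA mouse in 10 of 10 members and FA replicate 2 the highest in 10 of 10. PR replicate 2 was the lowest PR mouse in 6 members and PR replicate 3 in 4, while PR replicate 1 was the highest in 7 and PR replicate 4 in 3. The deviation of FA replicate 1 ranged from -0.08 in Fosb to -1.08 in Npas4.

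**Figure D3:**
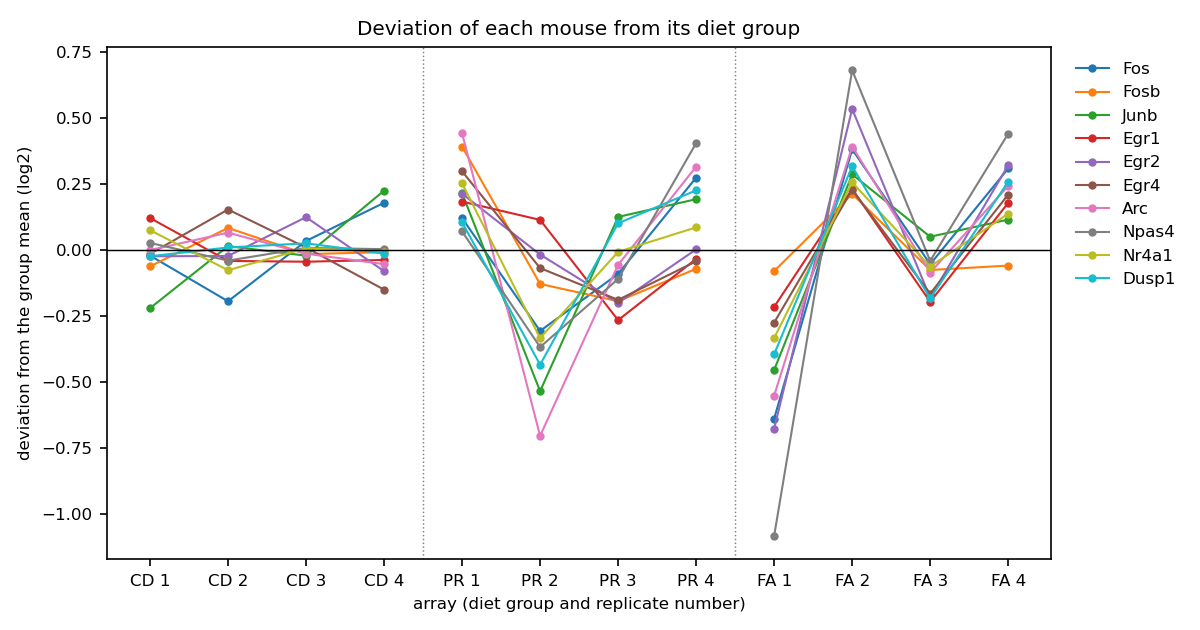
Deviation of each mouse from the mean of its diet group (log2 scale) for the 10 immediate early genes. Lines link the values of 1 gene within a group and imply no order of the mice. The mean deviation over genes stays within 0.01 in the CD mice and reaches -0.47 in FA replicate 1 and 0.35 in FA replicate 2.

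With group means removed, the 45 pairs of members had a mean Pearson r of 0.690 over the 12 arrays, from 0.159 (Junb with Egr1) to 0.958, and 37 pairs were over 0.5. The points share slides, and the r is a description. It was 0.893 within the FA, 0.550 within the PR and -0.080 within the CD group. Nr4a1 followed the mean of the other members most closely (r 0.940), and Fosb least (0.555). Without FA replicate 1 and FA replicate 2, the pair that spanned the FA range, each member still had r of 0.327 (Egr1) to 0.912 (Arc) with the others, and the mean over pairs was 0.534. The members' mean deviation had r of 0.160 with the negative control signal of the arrays, 0.135 with the number of spots well above background and -0.191 with the median net signal.

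The genes outside the set whose deviations were most like those of the members were sought among 18913 genes well above background on all arrays. The 10 most alike were Insm1 (r 0.961), Kremen1 (0.914), LOC100046616 (0.907), Gadd45b (0.895), Kcnj4 (0.891), ENSMUST00000093816 (0.887), Cyr61 (0.875), Btg2 (0.870), ENSMUST00000101800 (0.870) and Phf13 (0.862). Their r with group means kept was 0.895, 0.795, 0.883, 0.724, 0.504, 0.196, 0.764, 0.848, 0.008 and 0.866 in the same order. Insm1 is a zinc finger repressor, Kcnj4 an inward rectifier potassium channel, Gadd45b a stress-inducible gene linked to DNA demethylation, and Btg2 an antiproliferative co-regulator. In all, 31 genes, members included, had r over 0.8 and 54 under -0.8, with a median of -0.006 over all genes.

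Other genes that neuronal activity induces were taken from 3 lists, which hold 25 transcription factors and co-regulators, 29 effectors and 15 late-response genes, none of them a member. Among these 69 genes, 16 (23.2%) were called lower and 8 (11.6%) higher in PR than in CD, against the 16.6% and 13.4% of all probes. In FA relative to CD, 21 (30.4%) were lower and 6 (8.7%) higher, against 18.0% and 16.4%. Their median differences were -0.05 and -0.04. By list, the medians in PR and FA were -0.12 and -0.19 for the factors, -0.04 and -0.02 for the effectors, and 0.10 and 0.12 for the late-response genes. The members were chosen with the values of these arrays in view, so any distance from their medians is in part built in. Between FA and PR, 0 of the 69 genes were called in either direction by limma, and 0 by the Tukey test.

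The counts are given by list, and differences between lists were not tested. Of the 25 factors, 7 were called lower and 1 higher in PR, and 9 and 0 in FA, relative to CD. Atf3, a stress-induced bZIP factor, fell by 0.79 in PR (SE 0.09, adjusted p = 0.00019) and by 0.81 in FA (adjusted p = 0.000152). Klf2, a zinc finger factor also prominent in endothelium, fell by 0.59 in PR (adjusted p = 0.000683) and by 1.02 in FA (SE 0.09, adjusted p = 7.23e-05). Its deviations ran against those of the members (r -0.628). The relatives of the members in this list, named after their values were seen, are given in full. Of the AP-1 subunits, Fosl2 fell by 0.45 in PR (adjusted p = 0.00125) and fell by 0.62 in FA (adjusted p = 0.000171), and Jun fell by 0.26 (adjusted p = 0.0388) and fell by 0.40 (adjusted p = 0.00425). Jund had differences of 0.00 in PR (adjusted p = 0.996) and -0.07 in FA (adjusted p = 0.535). Fosl1 was not well above background on any CD array and was so on 7 of the PR and FA arrays, so no difference is given. Its measured means were 3.67 in the CD, 5.25 in the PR and 4.32 in the FA group, with an adjusted p of 0.0611 for PR and 0.41 for FA. Egr3 had differences of -0.36 in PR (adjusted p = 0.0934) and -0.19 in FA (adjusted p = 0.356), and its deviations had r of 0.838 with the members. Nr4a2 had a difference of -0.21 in PR (adjusted p = 0.16) and fell by 0.47 in FA (adjusted p = 0.00668). Nr4a3 passed the test as lower in PR (adjusted p = 0.0103) and in FA (adjusted p = 0.00462), with measured means of 4.99 in the CD, 3.98 in the PR and 3.86 in the FA group, but it was well above background on only 5 of the 12 arrays.

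Of the 29 effectors, 7 were lower and 1 higher in PR, and 10 and 2 in FA. Sik1, a kinase that restrains CREB coactivators, fell by 0.73 in PR (SE 0.07, adjusted p = 7.81e-05). Its means were 8.85 in the CD, 8.12 in the PR and 8.12 in the FA group, so the fall was not particular to PR. Arl4d, a small GTPase, fell by 0.74 in PR (adjusted p = 0.00164) and by 0.90 in FA (adjusted p = 0.000415). Amigo3, a membrane protein with leucine-rich repeats, rose by 0.56 in PR (adjusted p = 0.000363) and by 0.66 in FA (adjusted p = 0.000133).

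The late-response genes, mostly secreted peptides and proteases, had 2 lower and 6 higher in PR and 2 lower and 4 higher in FA. Nrn1, a neurite-promoting protein, rose by 0.33 in PR (SE 0.08, adjusted p = 0.0133) and by 0.38 in FA (adjusted p = 0.00552). Of 35 upstream kinases, factors and coactivators, 6 were lower and 5 higher in PR, and 10 lower and 4 higher in FA. Over all probes, 16.6% were lower and 13.4% higher in PR, and 18.0% and 16.4% in FA, so the upstream counts in PR lay near these shares. Map2k1, the kinase that activates ERK, had the largest rises, by 0.70 in PR (SE 0.08, adjusted p = 0.000173) and 1.03 in FA (adjusted p = 5.43e-05). Its deviations had r of 0.141 with those of the members.

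**Figure D4:**
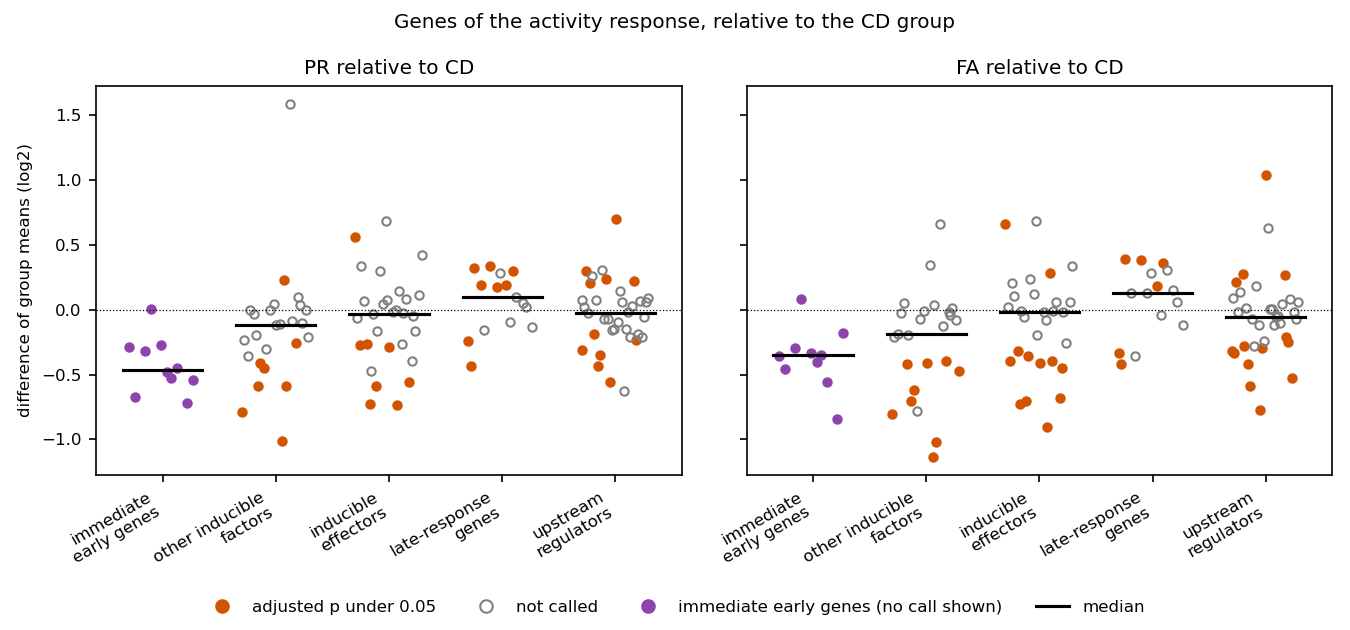
Difference of the group means (log2 scale) of the immediate early genes and of 4 lists of genes of the same response, for PR and FA relative to CD, with 1 point per gene and a line at the median. Filled orange points have an adjusted p under 0.05 and open points do not. The medians of the immediate early genes, -0.46 and -0.35, lie below those of the other lists, and the late-response genes have medians of 0.10 and 0.12. The immediate early genes were chosen with these values in view, so this distance is in part built in.

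Between mice, the mean deviation of the bright factors followed that of the members with r of 0.862 and that of the effectors with r of 0.872, while the late-response genes had r of 0.084. These are correlations of list means. Gene by gene, the median r with the members was 0.497 for the factors, 0.275 for the effectors and 0.14 for the late-response genes. Glucocorticoid-induced genes had r of -0.308 and heat shock genes -0.209. Of 10 glucocorticoid-induced genes, 1 was lower and 2 higher in PR, and 4 lower and 0 higher in FA. Of 7 heat shock genes, 2 were lower and 0 higher in PR, and 3 lower and 1 higher in FA. The shares over all probes were 16.6% lower and 13.4% higher in PR, and 18.0% and 16.4% in FA.

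Markers of cell types moved with the members in part. Their counts, here and below, stand beside 16.6% of all probes lower and 13.4% higher in PR, and 18.0% and 16.4% in FA. All markers of neurons, glia, endothelium and choroid plexus were well above background on all arrays, as the whole-brain label requires. So were those of erythroid cells, which are carried by blood. Of 10 markers of excitatory neurons of cortex and hippocampus, which are rich in these mRNAs, 5 were higher in PR and 4 in FA than in CD and 0 were lower. Their summed values were 31608 to 34847 in the CD, 32678 to 36277 in the PR and 31177 to 37301 in the FA group, and their deviations had r of 0.719 with the members. Of 9 striatal markers, 4 were higher and 0 lower in both comparisons (r 0.628). The striatal sums lay above the CD range in all PR and FA mice, at 113512 to 121174 in the CD, 125998 to 133781 in the PR and 127477.5 to 138701 in the FA group. The part of these markers in the members' values was not tested.

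Oligodendrocyte markers deviated against the members (r -0.842). Of 6, 2 were higher and 0 lower in PR and in FA, with sums of 245919 to 274580 in the CD, 253858 to 286956 in the PR and 270144 to 291668 in the FA group. The mean deviation of these markers was 0.10 in FA replicate 1 and -0.11 in FA replicate 2. Astrocyte markers had r of -0.621, choroid plexus -0.551, pituitary -0.447, microglia -0.404, thalamic neurons -0.366, erythroid cells -0.308, cerebellar cells -0.182, all neurons 0.340 and endothelium 0.358. Of the other marker lists, the sums of pituitary and cerebellar markers lay below the CD range in all PR and FA mice, and those of erythroid and microglial markers in all FA mice. Thalamic sums lay above the CD range in all PR mice (13109 to 14185, against 11788.5 to 12377 in the CD). Thalamic markers had 1 of 6 lower and 2 higher in PR, and 0 lower and 1 higher in FA. Endothelial markers had 0 of 6 lower and 3 higher in PR, and 1 lower and 3 higher in FA. Of 6 pituitary genes, 2 were well above background on all arrays and 2 were called lower in each comparison with the CD, with sums of 2042 to 2116 in the CD, 1036 to 1244 in the PR and 684 to 1584 in the FA group. Of 5 erythroid genes, 0 were called lower in PR and 1 in FA, with sums of 357606 to 387729 in the CD, 270024 to 383225 in the PR and 262176 to 352935 in the FA group. Of 10 cerebellar markers, 0 were lower and 2 higher in PR, and 2 lower and 1 higher in FA, with sums of 88297 to 91719 in the CD, 83751 to 86978 in the PR and 71376 to 83936 in the FA group. Of 6 microglial markers, 1 was lower and 1 higher in PR, and 2 lower and 1 higher in FA, with sums of 27814 to 28945 in the CD, 25837 to 28636 in the PR and 25914 to 27373 in the FA group. The part of these markers in the results on the members was not tested.

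Granulocyte markers, carried by blood, deviated against the members as well (r -0.819), and 3 of 5 were well above background on all arrays. Their sums were 1064 to 1104 in the CD, 692 to 6314 in the PR and 683 to 4340 in the FA group. They were highest in PR replicate 2, where Fos, Junb, Arc, Npas4, Nr4a1 and Dusp1 were the lowest of their group, and in FA replicate 1, where all members were. They were lowest in FA replicate 2, where all members were highest. As with the mean deviation of the members, though not with each member, the CD mice nearly coincided. By limma, 0 of these 5 genes were called in any comparison. Their part in the members' values was not tested.

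**Figure D5:**
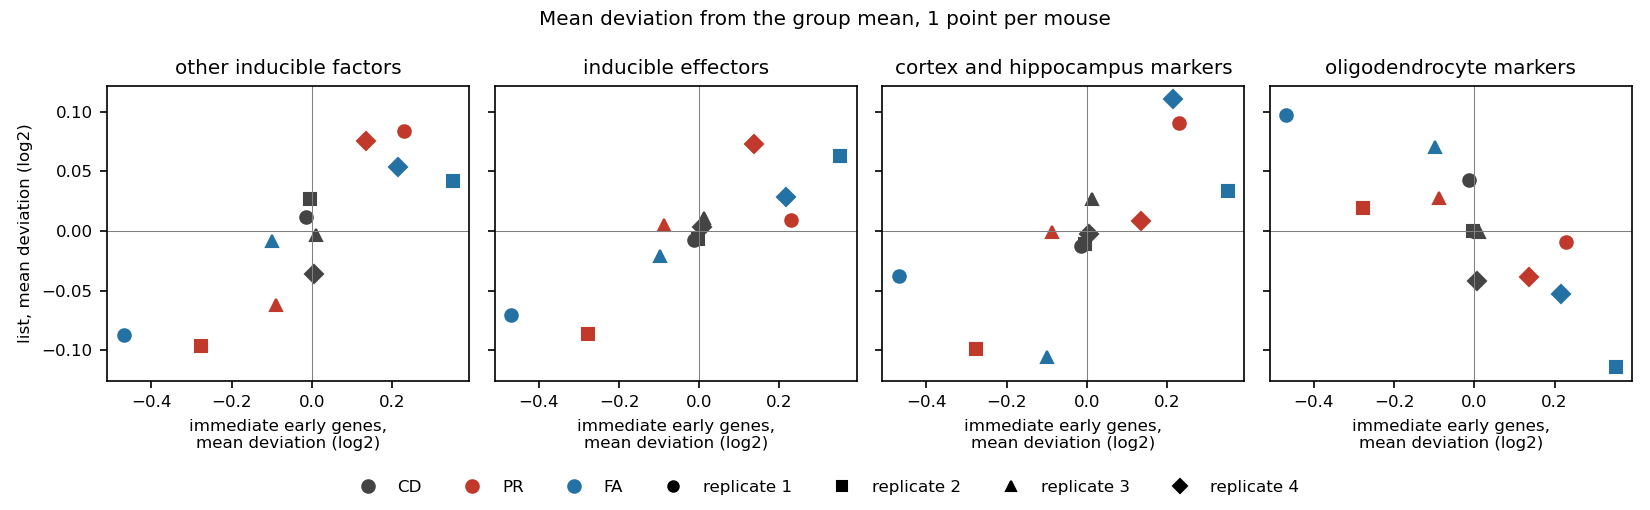
Mean deviation from the group mean (log2 scale) of 4 gene lists against that of the immediate early genes, with 1 point per mouse, coloured by diet group and shaped by replicate number. The factors (r 0.862), the effectors (0.872) and the cortex and hippocampus markers (0.719) rise with the immediate early genes, and the oligodendrocyte markers (-0.842) fall. The vertical axis spans a narrower range than the horizontal one.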

How the data were processed

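Each brain, as the labels are read here, was measured on 1 Agilent array in 1 colour. The arrays were quantified with Feature Extraction 11.0.1.1 (array design on mm9), and the authors deposited each spot's intensity, corrected for background within the array, and a table of 1 linear signal per probe after qspline normalization between arrays. The log2 of these deposited signals was analysed for 39429 probes. A gene was represented by its brightest probe. One limma fit (limma 3.58.1, R 4.3.3) held all 3 groups, and Benjamini-Hochberg adjustment was over all probes of a comparison. The fit was tested on simulated data. Tables and figures were made with Python 3.11.15, pandas 2.3.3 and matplotlib 3.10.9.

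The members and lists were chosen with earlier results of these data known. Named were all members, the 10 genes most alike, and in each comparison the 3 largest rises and falls among called, bright genes of the inducible and upstream lists, and, after their values were seen, the FOS, JUN, EGR and NR4A relatives among the inducible factors. Other settings tried were quantile normalization, scaling to the 75th percentile, normexp background (offset 50), removal of dim probes, trend and robust variance, fitting only the 2 groups compared, the replicate number as a block, the Tukey test of the methods, their stricter limits, and leaving out each array. Leaving out FA replicates 1 and 2 together was chosen after seeing the data. Promoters were RefSeq windows of GRCm38.p6. The number of arrays limits the precision. The 11 methylation samples were not analysed here.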

Additional observations from a re-analysis of the deposited data

Results flagged for a closer look

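In 6 of 51 groups of 4 mice, 1 mouse stood apart from the others by more than Dixon's criterion at the 95% level allows. Chance gives about 1 in 20 for independent groups. These groups are not independent, since they share the same arrays and the members move together. Their genes were also chosen with the values of these arrays in view. The 6 groups therefore cannot be set against that rate, and they are listed as a description. Among the members, FA replicate 2 had the highest Fosb value of its group at 10.10 (next 9.82), PR replicate 2 the lowest Junb value at 7.27 (next 7.93), and CD replicate 1 the highest Egr1 value at 14.64 (next 14.48). Among the other named genes, FA replicate 1 had the highest Amigo3 value at 7.73 (next 7.61), FA replicate 2 the lowest Atf3 value at 6.95 (next 7.10), and FA replicate 4 the lowest Map2k1 value at 13.58 (next 13.69). Without PR replicate 2, 1 member was called between PR and CD in place of 5.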

How the results depend on the processing

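All 330 other values of the members' differences moved by less than 1 SD, and all 240 of the named list genes kept their direction and call. Leaving out a single array cannot move a difference by 1 SD, so for those of the 330 values the outcome was fixed. Only the members' values under other normalizations could have moved further. The 240 values are of genes named for the largest called differences in the main fit, so that they kept their call is in part built in. Settings that change only the test or the probes kept leave a difference as it was, so its direction was fixed there. The members called lower in PR than in CD numbered 5, and 2 with the replicate number as a block, 0 by the Tukey test, 0 at the limits of the methods (2-fold or more, adjusted p under 0.0001), and 0 to 6 without single arrays. For FA relative to CD they numbered 3, and 2 with the block, 1 by the Tukey test, 0 at those limits, and 2 to 4 without single arrays. The other inducible genes called higher in PR numbered 8, and 5 with only the 2 groups compared, 3 by the Tukey test, 0 at the limits of the methods, and 3 to 7 without single arrays (3 without CD replicate 1, 4 without CD replicate 2, 5 without PR replicate 1 or PR replicate 4). At those limits, 0 of the 16 lower in PR, 1 of the 21 lower in FA and 0 of the 6 higher in FA were called. Between FA and PR, 1 was called lower in place of 0 with normexp background, with dim probes removed, and with trend and robust variance. The causes were not tested, apart from fewer arrays or stricter limits by construction. The mean r of the members was 0.534 to 0.795 under all alternatives run, 0.795 with the block. Same-numbered arrays correlated at -0.063 to 0.196, with 3 of 12 pairs over 0.1, and 5 of 12 arrays correlated best with their own number. The labels do not say whether the replicate numbers pair the mice, and these correlations cannot settle it. Averaging the probes of a gene gave no other value, as each member has 1.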
